A study of Homo sapiens with 12 samples.

Results

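The EGFR family was examined in 12 RNA-seq libraries of 2 lung squamous cell carcinoma (LUSC) cell lines. It was taken as 4 receptor genes (EGFR, ERBB2, ERBB3 and ERBB4) and 6 EGFR ligand genes (TGFA, AREG, EREG, HBEGF, BTC and EGF). EPGN (epigen), a further EGFR ligand gene, was not among these 10 genes and was read with the genes around the family. These 10 genes were taken by symbol from the 38434 named genes of the count tables, and all 10 were present. The 4 groups were LK-2 cells with ZsGreen (LK2-ctrl), LK-2 cells with maspin and ZsGreen (LK2-maspin), RERF-LC-AI cells with ZsGreen (LC-AI-ctrl) and RERF-LC-AI cells with maspin joined to ZsGreen by a P2A peptide (LC-AI-maspin), each with 3 libraries. The study describes the same maspin-ZsGreen vector for both cell lines. All 4 lines carried a lentiviral vector and had been selected with blasticidin, so the ctrl cells share the vector, the fluorescent protein and the selection with the maspin cells. Each line was a pool of surviving clones, and the maspin and ctrl pools of a cell line were selected separately, so maspin and the choice of clones cannot be told apart. LK-2 cells were kept in RPMI1640 and RERF-LC-AI cells in Eagle's minimum essential medium. The study describes RERF-LC-AI cells as carrying an EGFR driver mutation and LK-2 cells as wild type. The counts used here do not show this genotype. The sources do not say whether the 3 libraries of a group came from separate cultures, and p-values then measure only the spread between these libraries.

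The receptors of this family are tyrosine kinases that span the cell membrane, and binding of a ligand lets them pair with each other and switch on the RAS-ERK and PI3K-AKT pathways. ERBB2 has no known ligand of its own and acts as a partner, whereas ERBB3 has a weak kinase and signals through its partners. TGF-alpha, amphiregulin and EGF bind EGFR, and epiregulin, HB-EGF and betacellulin bind EGFR and ERBB4. The ligands are made as membrane proteins and are cut free by proteases of the ADAM family. In the airway, EGFR signalling drives growth and repair of the epithelium, and high EGFR is common in LUSC.

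Maspin, the serpin encoded by SERPINB5, was first checked in every library. In LK2-ctrl the level was 2.02, 2.01 and 1.87 CPM (counts scaled to a common library size), and in LK2-maspin it was 50.9, 50.7 and 48.4 CPM. In LC-AI-ctrl SERPINB5 stood at 0.271, 0.143 and 0.201 CPM (8 to 14 counts), and in LC-AI-maspin at 513, 480 and 438 CPM. All libraries therefore followed their labels, and the maspin level of LC-AI-maspin was well above that of LK2-maspin.

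The libraries held between 39802246 and 65454432 counts, and no library repeated another of its group (chi-square of 4.44 to 23.9 for each degree of freedom). Variation between the libraries of a group beyond the noise of independent counts, as a coefficient of variation, came to 11.7% for LK-2 and 6.43% for RERF-LC-AI. Most counts hold both reads of a pair, so these values and the chi-square still include some counting noise. Of 7 squamous markers, the summed level was 422 to 572 CPM in LK-2 libraries, nearly all of it SOX2, but 10.3 to 11.6 CPM in RERF-LC-AI libraries. SOX2 had 8 to 31 counts and TP63 18 to 50 counts in each RERF-LC-AI library, and TP63 was also low in LK-2 libraries, with 31 to 90 counts. Not all 7 markers went this way. PKP1 (log2 difference 4.81) and KRT14 (2.70, on 0 to 19 counts a library) were higher in LC-AI-ctrl than in LK2-ctrl. TP63, SOX2, KRT5, KRT6A and DSG3 were lower there. Replicate 3 of LK2-ctrl and of LK2-maspin stood highest of its group for the same 6 genes, ERBB2, ERBB3, ERBB4, TGFA, AREG and EREG.

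Of the 10 genes, TGFA rose in LK2-maspin cells, and EGFR fell and EREG rose in LC-AI-maspin cells. The windows around the starts of these 3 genes are shown because they are the members that changed. RefSeq gives a window from 250 bases before to 50 bases after the start (GRCh38.p14) for 9 of the 10 genes, with none for ERBB3. The windows are chr7:55018767-55019066 on the plus strand for EGFR, chr2:70553777-70554076 on the minus strand for TGFA and chr4:74364895-74365194 on the plus strand for EREG. Capitals mark the GC box (GGGCGG, bound by SP1) and the TATA box (TATAAA), each searched on both strands, and the marked stretches do not overlap.
EGFR: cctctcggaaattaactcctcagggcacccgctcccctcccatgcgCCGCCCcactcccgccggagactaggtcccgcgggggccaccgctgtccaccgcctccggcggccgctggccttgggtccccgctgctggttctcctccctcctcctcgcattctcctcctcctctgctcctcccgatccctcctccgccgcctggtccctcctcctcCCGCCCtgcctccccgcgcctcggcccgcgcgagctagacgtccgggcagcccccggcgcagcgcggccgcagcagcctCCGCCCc
TGFA: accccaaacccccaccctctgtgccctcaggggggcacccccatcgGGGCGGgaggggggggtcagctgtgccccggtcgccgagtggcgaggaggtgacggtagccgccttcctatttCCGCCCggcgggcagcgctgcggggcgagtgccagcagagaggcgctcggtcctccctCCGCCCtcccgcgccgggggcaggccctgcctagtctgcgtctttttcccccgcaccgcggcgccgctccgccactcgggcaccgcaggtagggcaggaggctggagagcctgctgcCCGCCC
EREG: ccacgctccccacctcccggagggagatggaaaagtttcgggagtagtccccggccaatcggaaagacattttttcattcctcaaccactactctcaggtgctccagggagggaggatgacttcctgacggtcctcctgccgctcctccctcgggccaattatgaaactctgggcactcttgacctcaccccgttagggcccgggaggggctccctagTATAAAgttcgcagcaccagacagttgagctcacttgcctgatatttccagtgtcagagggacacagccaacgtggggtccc

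The EGFR window held 3 GC boxes and the TGFA window 4, and neither held a TATA box. The EREG window held 1 TATA box and no GC box. Among the other windows, HBEGF had 5 GC boxes, ERBB4 and BTC had 1 each, and AREG had 1 GC box and 1 TATA box. Of all 35116 windows, 45% held a GC box and 11.5% a TATA box. G and C made up 75.3% of the EGFR window, 75.3% of the TGFA window and 57.7% of the EREG window, against a median of 58.7%. A match to the AP-1 site (TGANTCA, in 7.71% of windows) was found in the windows of ERBB2 and EGF. The ERBB2 window also had 2 ETS sites (CCGGAAG, in 10.3%). The ERBB2 window held no GC box or TATA box, and nor did that of EGF. These matches describe the outermost start only, and any other start of a gene was not searched.

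**Figure D1:**
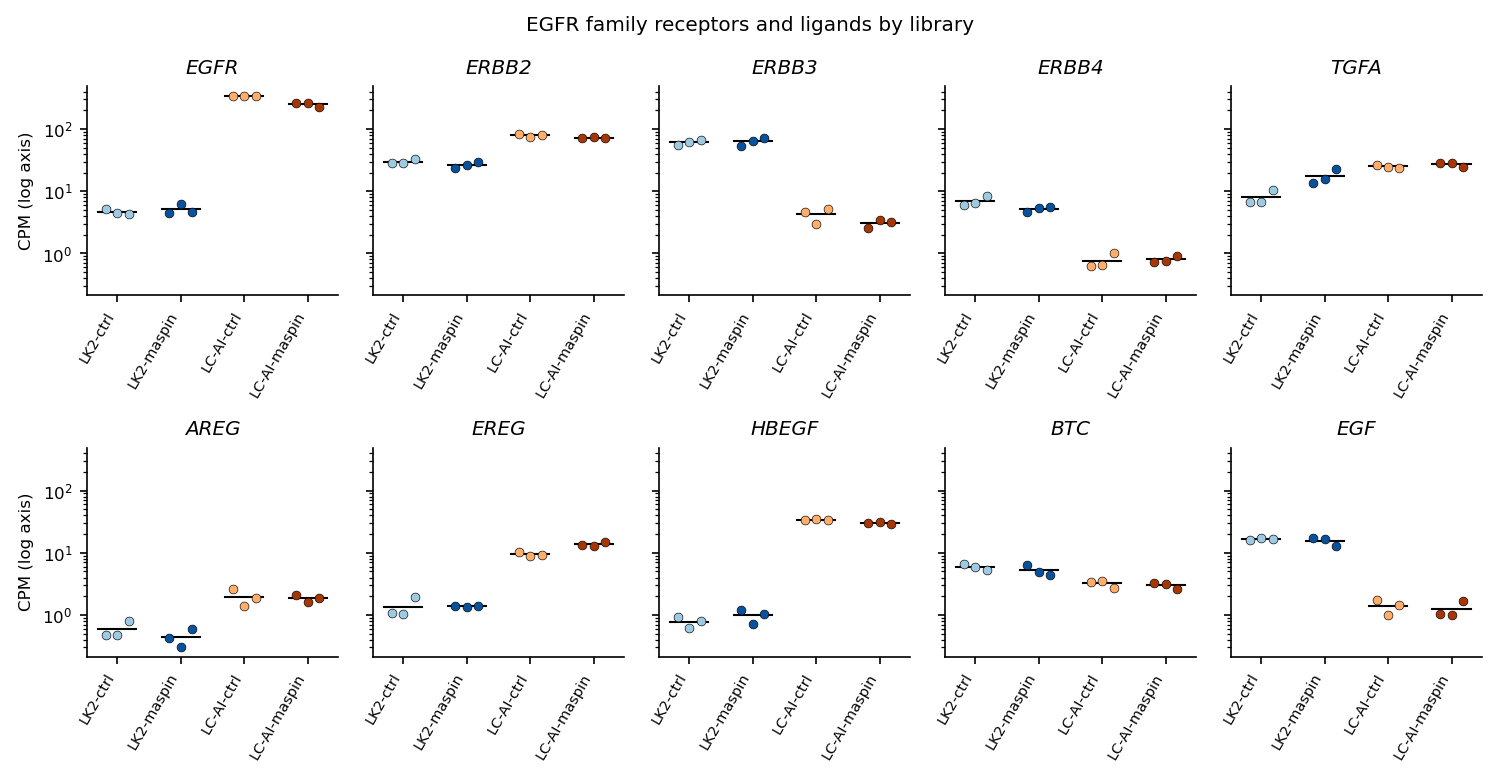
Level of each EGFR family gene in CPM (log axis, 1 scale for all panels), with 1 point for each library, ordered by replicate number, and a line at the mean of the 3 libraries of a group. The EGFR and HBEGF points of RERF-LC-AI cells lie far above those of LK-2 cells, ERBB3, ERBB4 and EGF lie far below, and TGFA of LK2-maspin lies above LK2-ctrl.

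The make-up of the family was first compared between the ctrl lines, to show what each cell line expresses before maspin. RERF-LC-AI cells had far more EGFR and HBEGF, and LK-2 cells had far more ERBB3, EGF and ERBB4. EGFR was at 5.21, 4.52 and 4.25 CPM in LK2-ctrl and at 337, 346 and 345 CPM in LC-AI-ctrl, a log2 difference of 6.41 (SE 0.11). HBEGF, the heparin-binding ligand, was at 0.924, 0.628 and 0.800 CPM against 33.5, 34.3 and 34.0 CPM (log2 difference 5.65, SE 0.13). ERBB3 went the other way, with 55.1, 62.4 and 67.4 CPM in LK2-ctrl and 4.66, 3.0 and 5.19 CPM in LC-AI-ctrl (log2 difference -3.64, SE 0.15).

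EGF, the founding ligand of the family, was at 16.1, 17.4 and 16.9 CPM in LK2-ctrl and at 1.74, 1.0 and 1.42 CPM in LC-AI-ctrl (log2 difference -3.39, SE 0.19). ERBB4, a receptor of neuregulins, was at 6.05, 6.39 and 8.45 CPM against 0.619, 0.644 and 1.02 CPM (log2 difference -2.98, SE 0.20). No library of one line came near the other line for these 5 genes. EREG differed by 3.03 (SE 0.16) on the log2 scale, AREG by 1.96 (SE 0.28), TGFA by 1.88 (SE 0.16) and ERBB2 by 1.61 (SE 0.08), all higher in LC-AI-ctrl. BTC differed least, with 6.62, 5.84 and 5.38 CPM in LK2-ctrl and 3.44, 3.52 and 2.67 CPM in LC-AI-ctrl (log2 difference -0.68, SE 0.16, adjusted p = 0.00120).

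All 10 genes passed the test between the ctrl lines, 6 higher and 4 lower in RERF-LC-AI cells, where 61.9% of 28123 genes passed (edgeR quasi-likelihood test, Benjamini-Hochberg adjustment over all genes tested). The median log2 difference of all genes was -0.12 here and -0.34 with upper-quartile factors. With these factors 7056 genes were called higher and 11463 lower, against 8583 and 8824 with TMM. The 10 genes kept direction and call under every setting tried. Cell line, culture medium and count table changed together between these groups and cannot be told apart. The same holds for the EGFR genotype that the study states for each line.

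Per length of transcript, the receptors and ligands were ranked by RPKM, the CPM divided by the length in kilobases of the MANE Select transcript. In LK2-ctrl ERBB3 led with 11 ± 1.1 (SD, n = 3) RPKM, followed by ERBB2 with 6.58 ± 0.542 RPKM and EGF with 2.63 ± 0.104 RPKM. BTC at 2.24 ± 0.236 and TGFA at 1.93 ± 0.506 RPKM overlapped each other. ERBB4 (0.576 RPKM), AREG (0.476 RPKM) and EGFR (0.470 RPKM) came next and did not differ beyond the spread between neighbours. HBEGF (0.333 RPKM) and EREG (0.292 RPKM) were lowest and also overlapped.

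In LC-AI-ctrl EGFR led with 34.6 ± 0.495 RPKM, followed by ERBB2 with 17.3 ± 0.836, HBEGF with 14.4 ± 0.176 and TGFA with 6.10 ± 0.381 RPKM. EREG (2.04 RPKM) and AREG (1.59 RPKM) overlapped, as did AREG and BTC (1.21 RPKM). ERBB3 (0.763 RPKM), EGF (0.217 RPKM) and ERBB4 (0.0630 RPKM) were lowest and stood apart from their neighbours. LC-AI-maspin had the same order. With the length of all annotated exons of a gene in place of the MANE transcript, a view added after the data were seen, HBEGF passed ERBB2 and BTC passed AREG in both RERF-LC-AI groups, BTC passed EGF in LK2-ctrl, and in LK2-maspin TGFA passed ERBB2 and EGFR fell behind ERBB4 and HBEGF.

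As shares of the summed receptor RPKM, ERBB3 made up 59.0% ± 1.69 (SD, n = 3) and ERBB2 35.4% ± 1.38 in LK2-ctrl, where EGFR made up 2.56% ± 0.483. In LC-AI-ctrl EGFR made up 65.6% ± 1.53 and ERBB2 32.8% ± 1.28, and ERBB3 1.44% ± 0.371. Among the 6 ligands, EGF (33.4%), BTC (28.6%) and TGFA (24.2%) shared most of the sum in LK2-ctrl, whereas HBEGF (56.4%) and TGFA (23.9%) did in LC-AI-ctrl. The 4 receptors summed to 18.6 ± 1.61 RPKM in LK2-ctrl and 52.8 ± 0.626 RPKM in LC-AI-ctrl, and the 6 ligands to 7.90 ± 0.605 and 25.6 ± 0.933 RPKM. RPKM were scaled within each line, so these sums are not on a shared scale. EPGN, left out of the ligand sums, was at 0.940, 0.758 and 0.589 RPKM in LK2-ctrl and at 0.303, 0.313 and 0.284 RPKM in LC-AI-ctrl.

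**Figure D2:**
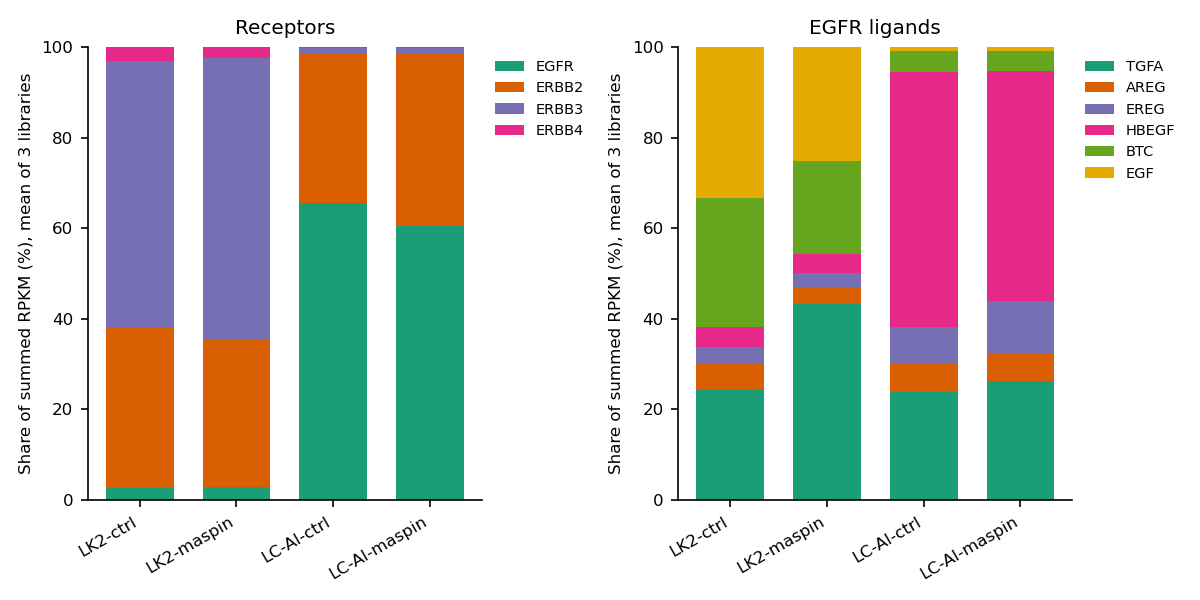
Share of each gene in the summed RPKM of the 4 receptors (left) and the 6 EGFR ligands (right), as stacked bars of the mean of 3 libraries for each group. ERBB3 and ERBB2 fill most of the receptor bar in LK-2 cells and EGFR and ERBB2 in RERF-LC-AI cells, and the TGFA part is 24.2% in LK2-ctrl and 43.2% in LK2-maspin.

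The effect of maspin in LK-2 cells was then asked, where maspin had been found in nucleus and cytoplasm. TGFA, which encodes TGF-alpha, rose 2.19-fold. It was at 6.79, 6.72 and 10.4 CPM in LK2-ctrl and at 13.6, 15.9 and 22.7 CPM in LK2-maspin. Every maspin library was above every ctrl library, although replicate 3 was the highest of both groups. This is 1.13 on the log2 scale (SE 0.20), with an adjusted p of 0.0307 by the edgeR quasi-likelihood test. The call was lost without LK2-ctrl replicate 1 (adjusted p = 0.0956), LK2-ctrl replicate 2 (0.268), LK2-maspin replicate 2 (0.122) or LK2-maspin replicate 3 (0.0828), while the log2 fold change stayed between 0.89 and 1.37.

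TGFA lies on chromosome 2 from 70447284 to 70554193 (GRCh38), on the minus strand, with 6 exons. In LK2-maspin TGFA was the third of the 10 genes by RPKM (4.23 ± 1.15, overlapping ERBB2, and the second with the length of all exons), and its share of the ligand sum was 43.2% ± 9.22 against 24.2% ± 4.39 in LK2-ctrl. The ligand sum was 9.72 ± 0.634 RPKM in LK2-maspin and 7.90 ± 0.605 RPKM in LK2-ctrl. EGF (25.3%) and BTC (20.4%) held smaller shares than in LK2-ctrl, though neither gene passed the test in LK-2 cells.

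None of the 4 receptors was called in LK-2 cells. EGFR was at 4.45, 6.26 and 4.64 CPM in LK2-maspin, within or just above the ctrl range (log2 fold change 0.13, SE 0.16, adjusted p = 1.0). ERBB2, the partner without a ligand, was at 28.7, 28.4 and 32.8 CPM and at 23.8, 26.8 and 29.8 CPM, with overlapping groups (-0.16, SE 0.10, adjusted p = 0.910). ERBB3 was at 54.1, 65.0 and 71.7 CPM in LK2-maspin and spread as widely as in LK2-ctrl (0.04, SE 0.10). ERBB4 was at 4.71, 5.37 and 5.67 CPM in LK2-maspin, all below the 3 ctrl libraries, but missed the threshold (-0.41, SE 0.15, adjusted p = 0.601). With a replicate block, a term for replicate number in the fit, its adjusted p was 0.0382.

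The other ligands had few counts or did not differ beyond their spread in LK-2 cells. AREG had 12 to 36 counts a library, 0.483, 0.480 and 0.800 CPM in LK2-ctrl and 0.430, 0.304 and 0.601 CPM in LK2-maspin, and its log2 fold change of -0.38 had an SE as large, 0.38. EREG was at 1.09, 1.03 and 1.91 CPM in LK2-ctrl and 1.40, 1.34 and 1.42 CPM in LK2-maspin (log2 fold change 0.05, SE 0.26). HBEGF was at 1.21, 0.709 and 1.05 CPM in LK2-maspin, on 28 to 65 counts (0.35, SE 0.29). BTC (-0.18, SE 0.16) and EGF (-0.11, SE 0.11) had overlapping groups as well, with EGF at 17, 17 and 12.8 CPM and BTC at 6.41, 4.87 and 4.42 CPM in LK2-maspin.

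In all, 1 of the 10 genes was called in LK-2 cells, where 0.533% of 26270 genes were called (98 or 0.373% higher and 42 or 0.16% lower). The ctrl and maspin libraries did not overlap for TGFA and ERBB4, and did not overlap for 11.9% of all genes tested. The median log2 fold change of the 10 genes was -0.03, and that of all genes was -0.00. With a replicate block, 2 of the 10 genes (ERBB4 and TGFA) and 1190 of all genes were called. Of the 7 squamous markers, 1 was called in LK-2 cells, KRT5, a basal keratin, which was at 1.01, 0.665 and 0.667 CPM in LK2-ctrl and at 5.62, 7.63 and 9.08 CPM in LK2-maspin (log2 fold change 3.25, SE 0.23, adjusted p = 4.65e-05). KRT6A (0.96, adjusted p = 0.138) lay higher and SOX2 (-0.33, adjusted p = 0.0756) lower in all LK2-maspin libraries without a call, and the sum of the list was 530 to 572 CPM in LK2-ctrl and 422 to 484 CPM in LK2-maspin. Among the fibroblast markers LUM lay higher in all LK2-maspin libraries without a call (1.45, adjusted p = 0.0583). The part of these markers in the TGFA result was not tested. In these bulk libraries, fewer cells of a kind and less RNA per cell cannot be told apart.

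**Figure D3:**
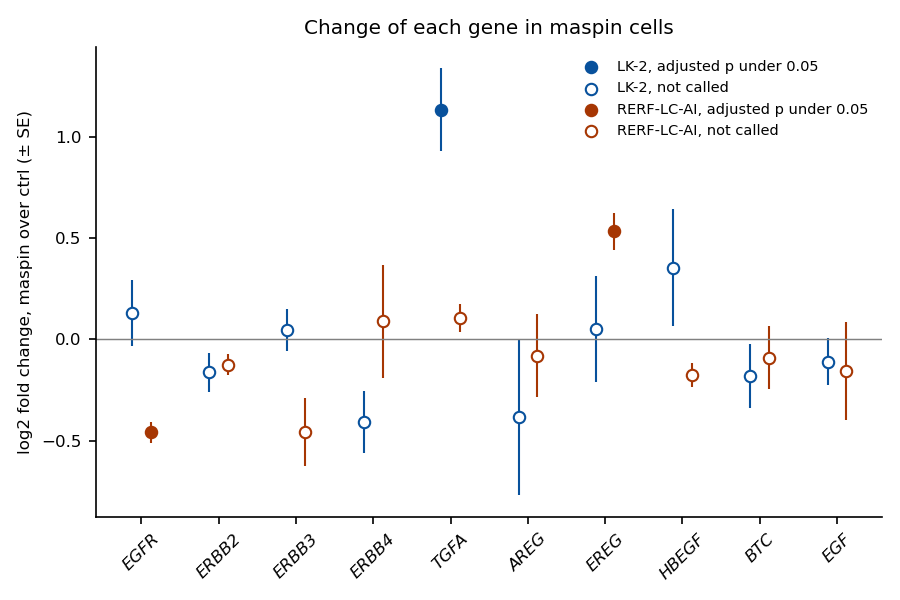
Fitted change (maspin over ctrl, log2) of each EGFR family gene, with bars of 1 SE and filled points for adjusted p under 0.05, in LK-2 (blue) and RERF-LC-AI cells (brown). TGFA in LK-2 cells, at 1.13, lies highest, and in RERF-LC-AI cells EGFR (-0.46) and EREG (0.53) are filled.

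In RERF-LC-AI cells, where maspin had been detected in the cytoplasm, EGFR fell by a factor of 1.37. It was at 337, 346 and 345 CPM in LC-AI-ctrl and at 264, 259 and 226 CPM in LC-AI-maspin. The 3 ctrl libraries were nearly equal and the groups stood well apart. On the log2 scale EGFR changed by -0.46 (SE 0.05, adjusted p = 2.41e-07), and it remained called under every setting tried, with values from -0.50 to -0.39. EGFR lies on chromosome 7 from 55019017 to 55211628 on the plus strand, with 28 exons. EGFR-AS1, a non-coding gene on the opposite strand across an EGFR exon, had 11 to 33 counts in each library. EGFR had at least 13693 counts in RERF-LC-AI libraries but only 191 to 248 in LK-2 libraries.

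EREG, the gene of epiregulin, rose 1.45-fold in RERF-LC-AI cells. It was at 10.1, 8.92 and 9.20 CPM in LC-AI-ctrl and at 13.2, 12.9 and 14.7 CPM in LC-AI-maspin, with no overlap. EREG thus changed by 0.53 on the log2 scale (SE 0.09, adjusted p = 1.04e-04), and the call held under every setting tried, with values from 0.47 to 0.59. EREG lies on chromosome 4 from 74365145 to 74388749 on the plus strand. It has other EGFR ligand genes as neighbours, with EPGN (epigen) 48.4 kb before it and AREG 56.4 kb after it, and BTC lies 290 kb beyond AREG.

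These neighbours did not move alike in RERF-LC-AI cells. EPGN rose on 38 to 113 counts a library, from 0.805 ± 0.0396 to 1.46 ± 0.287 CPM (SD, n = 3, log2 fold change 0.86, SE 0.23, adjusted p = 0.0142), and lost the call without LC-AI-ctrl replicate 3 (adjusted p = 0.0573) or LC-AI-maspin replicate 3 (0.122). AREG, the gene of amphiregulin, was at 2.63, 1.39 and 1.87 CPM in LC-AI-ctrl and 2.08, 1.60 and 1.89 CPM in LC-AI-maspin (-0.08, SE 0.21, adjusted p = 0.892). BTC was at 3.28, 3.18 and 2.63 CPM in LC-AI-maspin and overlapped LC-AI-ctrl (-0.09, SE 0.15, adjusted p = 0.821). In LK-2 cells EPGN had a log2 fold change of 0.05 (SE 0.21).

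HBEGF stood at the threshold in RERF-LC-AI cells. It was at 33.5, 34.3 and 34.0 CPM in LC-AI-ctrl and at 29.8, 31.0 and 29.2 CPM in LC-AI-maspin, all lower, and the change was -0.18 on the log2 scale (SE 0.06, adjusted p = 0.0501). With the likelihood ratio test of edgeR, the test the study had used, it was called (adjusted p = 0.0420). It was also called with DESeq2 (0.0225), RLE factors (0.0469), a filter of at least 10 counts in every library (0.0378) and a replicate block (0.0124). The adjusted p ran from 0.0124 to 0.39 over all settings, so HBEGF is neither a firm change nor shown to be level.

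TGFA, which rose in LK-2 cells, was at 26.9, 24.6 and 23.9 CPM in LC-AI-ctrl and at 28.2, 28.0 and 25.0 CPM in LC-AI-maspin (log2 fold change 0.10, SE 0.07, adjusted p = 0.424). EGF was at 1.04, 1.0 and 1.67 CPM in LC-AI-maspin, within the spread of LC-AI-ctrl (-0.15, SE 0.24). ERBB2 was at 82.7, 75.1 and 79.1 CPM and at 71.4, 74.4 and 71.4 CPM, with no overlap but no call (-0.12, SE 0.05, adjusted p = 0.127). With a replicate block its adjusted p was 0.0331. ERBB2 shares exon sequence with MIEN1 on the opposite strand, which was at 17.2 ± 0.473 and 16.5 ± 1.51 CPM in the ctrl and maspin groups of RERF-LC-AI cells and was not called there. In LK-2 libraries MIEN1 was at 27.2 to 32.5 CPM, against 23.8 to 32.8 CPM for ERBB2, and was not called either.

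ERBB3, which binds neuregulins, was at 4.66, 3.0 and 5.19 CPM in LC-AI-ctrl and at 2.60, 3.44 and 3.26 CPM in LC-AI-maspin. The ctrl libraries were spread widely and replicate 2 lay among the maspin libraries, and the log2 change of -0.46 (SE 0.17) missed the threshold (adjusted p = 0.0855). Without LC-AI-ctrl replicate 2 the value was -0.66 and the gene was called (adjusted p = 0.00329). It was also called with no filter (0.0310) and with a replicate block (0.0425). ERBB4 had 32 to 61 counts a library, 0.733, 0.766 and 0.916 CPM in LC-AI-maspin, and overlapped LC-AI-ctrl (0.09, SE 0.28).

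Of the 10 genes, 1 was called higher and 1 lower in RERF-LC-AI cells, where 10.5% of 25197 genes were called. Their median log2 fold change was -0.11 and that of all genes was 0.01. With a replicate block, 5 of the 10 genes (EGFR, ERBB2, ERBB3, EREG and HBEGF) and 4081 of all genes were called. The libraries did not overlap for EGFR, ERBB2, EREG and HBEGF, or 4 of 10 genes, and for 25.1% of all genes tested. Of all genes, 1010 were called higher and 1645 lower with TMM, against 1408 and 1287 with library size alone. The directions of EGFR and EREG were the same with both scalings. Of 5 fibroblast markers, 1 was called in these cells, COL1A2, which fell (log2 fold change -0.96, adjusted p = 2.64e-07). COL1A1 (0.13), COL3A1 (-0.14) and DCN (0.52) were not called, with overlapping libraries, and LUM had too few counts to be tested. The summed level was 30.2 to 46.1 CPM in LC-AI-ctrl and 21.5 to 24.3 CPM in LC-AI-maspin. The part of COL1A2 in the EGFR and EREG results was not tested.

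The receptor sum was 41.7 ± 2.22 RPKM in LC-AI-maspin against 52.8 ± 0.626 RPKM in LC-AI-ctrl. EGFR held 60.4% ± 1.97 of it in LC-AI-maspin and ERBB2 38.2% ± 1.76. The ligand sum was 25.1 ± 0.588 RPKM against 25.6 ± 0.933 RPKM. Within it EREG held 11.8% ± 1.11 in LC-AI-maspin and 7.98% ± 0.268 in LC-AI-ctrl, and HBEGF 50.7% ± 1.07 and 56.4% ± 2.64. In LK2-maspin the receptor sum was 18.2 ± 2.30 RPKM, with overlap to LK2-ctrl.

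To ask whether the change with maspin differed between the 2 lines, an interaction term was fitted over the 12 libraries, the change in RERF-LC-AI minus that in LK-2 cells. SERPINB5 was at 48.4 to 50.9 CPM in LK2-maspin and at 438 to 513 CPM in LC-AI-maspin. Cell line, maspin level and the choice of clones therefore cannot be told apart in this term. TGFA differed by -1.03 (SE 0.22, adjusted p = 0.0152), the higher change being that of LK-2 cells, and was the only one of the 10 genes called. Of 28123 genes, 1.76% were called, 113 or 0.402% higher and 381 or 1.35% lower (202 and 408 with library size alone). Without LK2-ctrl replicate 2 or LC-AI-maspin replicate 3 the TGFA call was lost (adjusted p = 0.0618 and 0.0553). The EGFR difference was -0.58 (SE 0.15), with an adjusted p of 0.0528 that ran from 4.86e-04 to 0.145 over the settings tried, and it was called under 7 other tests, scalings and filters.

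For EREG, called in RERF-LC-AI cells, the difference between the lines was not called (0.47, SE 0.23, adjusted p = 0.428). The differences of HBEGF (-0.55, SE 0.21, adjusted p = 0.243), ERBB3 (-0.50, SE 0.21, adjusted p = 0.319) and ERBB4 (0.50, SE 0.28, adjusted p = 0.501) missed the threshold too. Those of ERBB2 (0.04), AREG (0.29), BTC (0.09) and EGF (-0.04) were small against SEs of 0.11, 0.41, 0.23 and 0.27.

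The genes around the family were read from lists of 61 genes: 5 other ligands, 6 genes of ligand release, 15 adaptors, 15 genes that restrain the receptors and 20 genes known to respond to ERK. Of these, 60 were tested in each line, and CBLC had too few counts. In LK-2 cells 0 rose and 1 fell, against the 0.373% higher and 0.16% lower of all genes. The gene that fell was SPRED1, which restrains RAS signalling, from 112 ± 1.63 to 89.7 ± 3.57 CPM (SD, n = 3, log2 fold change -0.32, SE 0.06, adjusted p = 0.0388). The median of the lists was -0.00. SPRED1 lost the call without LK2-ctrl replicate 1 or 2 or without any 1 of the LK2-maspin libraries (adjusted p from 0.0736 to 0.439) and with RLE factors (0.0521), and had a log2 fold change of 0.00 (SE 0.05) in RERF-LC-AI cells.

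In RERF-LC-AI cells 11 of the 60 rose and 9 fell, against the 4.01% higher and 6.53% lower of all genes, and the median was 0.02. Of the 5 other ligands, 1 rose (EPGN) and 1 fell. NRG1, the neuregulin that binds ERBB3 and ERBB4, fell from 21.0 ± 1.77 to 11 ± 0.738 CPM (log2 fold change -0.93, SE 0.08, adjusted p = 2.95e-09), whereas in LK-2 cells it was at 19.7 ± 0.406 and 20.0 ± 1.58 CPM. Of the 6 genes of ligand release, ADAM9, a protease, fell (-0.22, adjusted p = 0.00111) and RHBDF2, which brings ADAM17 to the cell surface, rose (0.25, adjusted p = 0.00578), though RHBDF2 was not called without LC-AI-ctrl replicate 3 (adjusted p = 0.0882) or in the fit of 12 libraries (0.203). None of the 15 adaptors rose and 3 fell by small amounts: GRB2 (-0.16), GAB2 (-0.27) and NCK2 (-0.22), each of which lost its call when single libraries were left out.

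Of the 14 tested genes that restrain the receptors, 3 rose and 2 fell in RERF-LC-AI cells. ERRFI1, the feedback inhibitor MIG6 of the EGFR kinase, rose from 209 ± 9.89 to 260 ± 4.65 CPM (log2 fold change 0.31, SE 0.05, adjusted p = 2.10e-05), and the adjusted p was 0.0631 in the fit of 12 libraries. CBLB rose (0.42, adjusted p = 0.00333) and CBL, the related ubiquitin ligase that marks EGFR for breakdown, fell (-0.26, adjusted p = 8.73e-04). SH3KBP1, which helps CBL take up the receptor, rose from 332 ± 3.46 to 376 ± 10.7 CPM (0.18, adjusted p = 0.00610), and was at 15.7 ± 0.807 and 12 ± 1.33 CPM in LK-2 cells. The SH3KBP1 call was lost without LC-AI-ctrl replicate 3 (adjusted p = 0.0652), without LC-AI-maspin replicate 3 (0.0623) and in the fit of 12 libraries (0.144).

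Of the 20 ERK response genes, 6 rose and 2 fell in RERF-LC-AI cells. The transcription factors ETV4 and ETV5 rose, ETV4 from 24.1 ± 1.08 to 34.9 ± 0.649 CPM (log2 fold change 0.53, SE 0.06, adjusted p = 3.46e-07) and ETV5 from 106 ± 6.04 to 146 ± 5.75 CPM (0.46, SE 0.05, adjusted p = 1.60e-07). CCND1, the gene of cyclin D1, fell (-0.28) from 323 ± 29.2 to 266 ± 16.7 CPM, and FOSL1, an AP-1 subunit, fell (-0.23) from 486 ± 37.0 to 415 ± 26.9 CPM. FOSL1 lost the call without LC-AI-ctrl replicate 2 (adjusted p = 0.0519), without LC-AI-maspin replicate 3 (0.0785) and in the fit of 12 libraries (0.377), where CCND1 was not called either (0.111). In LK-2 cells ETV4 was at 154 ± 3.95 and 144 ± 3.35 CPM and ETV5 at 272 ± 13 and 266 ± 9.23 CPM, with no call. Most of these changes were under 1.5-fold, and in the fit of 12 libraries 7 genes of the lists were called in RERF-LC-AI cells.

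**Figure D4:**
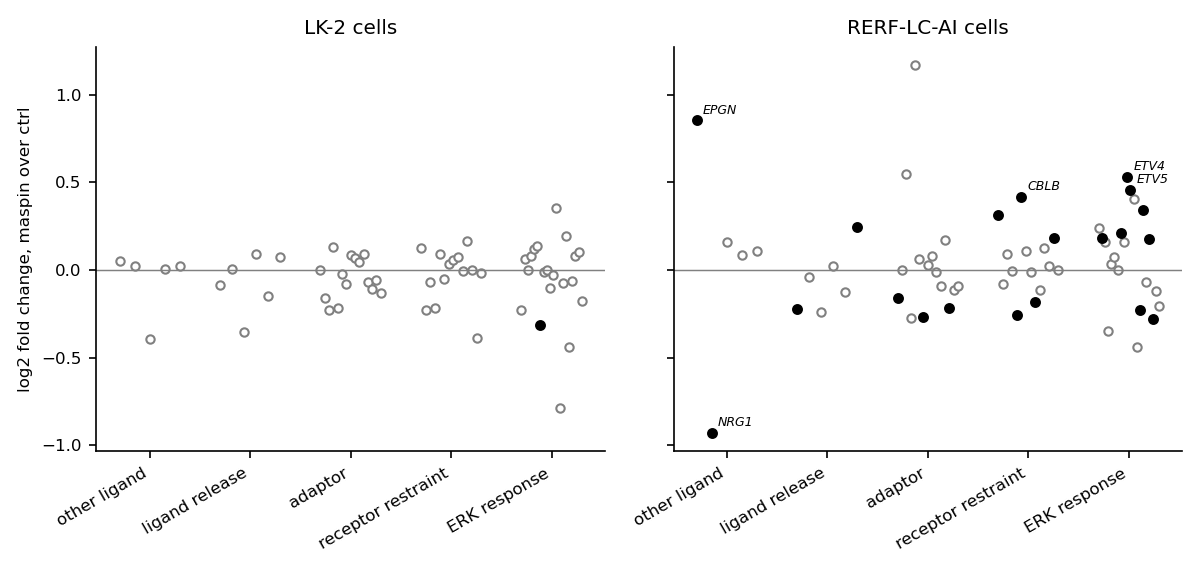
Change (maspin over ctrl, log2) of the tested genes of 5 lists around the EGFR family (1 point a gene, filled for adjusted p under 0.05), in LK-2 (left) and RERF-LC-AI cells (right). In LK-2 cells 1 of 60 points is filled, and in RERF-LC-AI cells 20 of 60, among them NRG1 at -0.93 and EPGN at 0.86.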

How the data were processed

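Poly(A) RNA of 12 libraries was sequenced on an Illumina NovaSeq. Reads had been trimmed by the authors (Trimmomatic 0.39) and mapped to GRCh38.p13 (BWA 0.7.17), per the labels with SAMtools 1.12 (LK-2) or 1.10 (RERF-LC-AI). The deposited tables give counts of mapped reads per gene, which were used here. They also give signal columns that the authors scaled by total or TMM (edgeR 3.16.5), which were not used. The counting tool and its use of strand are not given in the sources used here. Of counts from 1 to 9, 23.7 to 26.0% were odd, so that most hold both reads of a pair. The 646 lines without a symbol, 0.292 to 0.416% of counts, were left out.

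Genes were tested with the quasi-likelihood test of edgeR 4.0.16 (R 4.3.3) within each line, with TMM factors and the default filter (minimum count 10, minimum total 15), at a Benjamini-Hochberg adjusted p under 0.05. The interaction and the ctrl lines were tested in 1 fit of 12 libraries. The SE is the log2 fold change over the square root of F. CPM use the factors of each line's own fit, and RPKM divide CPM by MANE Select length (GENCODE 44). The script was tested on simulated data. Libraries were not paired by replicate number. Alternatives were the likelihood ratio test, DESeq2 1.42.0, RLE or upper-quartile factors or library size alone, other filters, a replicate block, 1 fit of the 12 libraries, a threshold of 0.01 and each library left out in turn. The 10 genes and the lists were chosen with earlier results of these data known. Besides the 10 genes, the called genes of each list that ranked first by adjusted p in a line were named, at most 4, with their values in the other line, and the 3 genes most like EGFR, ERBB2, ERBB3 and TGFA.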

Additional observations from a re-analysis of the deposited data

Results flagged for a closer look

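The change with maspin differed between the cell lines for 1 of the EGFR family genes and 4 of the 60 genes around it. This was by the interaction test over 12 libraries (edgeR quasi-likelihood test), which called 1.76% of all 28123 genes tested. Each value is the log2 fold change in RERF-LC-AI minus that in LK-2 cells. Cell line, maspin level and the choice of clones cannot be told apart in these values. For TGFA the difference was -1.03 (SE 0.22, adjusted p = 0.0152), from 1.13 in LK-2 cells and 0.10 in RERF-LC-AI cells. NRG1 differed by -0.95 (SE 0.12, adjusted p = 2.59e-04), from 0.02 in LK-2 cells and -0.93 in RERF-LC-AI cells. The difference for ETV4 was 0.64 (SE 0.08, adjusted p = 1.91e-04), with -0.10 and 0.53, and for ETV5 it was 0.49 (SE 0.08, adjusted p = 0.00332), with -0.03 and 0.46. SH3KBP1 differed by 0.57 (SE 0.10, adjusted p = 0.00334), with -0.39 in LK-2 cells, where it was not called, and 0.18 in RERF-LC-AI cells.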

How the results depend on the processing

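Of 991 single-gene values under other settings, 893 kept direction and side of the threshold, 24 became called, 48 lost the call and 26 changed sign. The 10 genes called between the ctrl lines remained 10 throughout. Of the family genes, LK-2 cells had 1 called, and 0 at an adjusted p under 0.01. RERF-LC-AI cells had 2 called, and 2 to 3 with a library left out. The interaction had 1 called, 0 at an adjusted p under 0.01, and 2 (EGFR and TGFA) with the likelihood ratio test, DESeq2, RLE factors, library size only, upper-quartile factors, no filter or at least 10 counts in every library. With a library left out, the counts were 0 to 1 in LK-2 cells and 0 to 2 in the interaction. Of the genes around the family, 1 was called in LK-2 cells, against 0 at an adjusted p under 0.01 or with RLE factors, 2 in the fit of 12 libraries and 0 to 1 with a library left out. In RERF-LC-AI cells 20 were called, against 11 at an adjusted p under 0.01, 7 in the fit of 12 libraries and 10 to 19 with a library left out (10 without LC-AI-ctrl replicate 3 and 13 without LC-AI-maspin replicate 3). The cause of these changes was not tested.

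The labels do not say what equal replicate numbers share. Over all genes tested, the deviations of ctrl and maspin libraries with the same number correlated at 0.132, 0.0104 and 0.142 in LK-2 cells and at 0.0340, 0.0445 and -0.00342 in RERF-LC-AI cells, where pairing required over 0.1 for each. Over genes with a log2 CPM over 3 they were 0.745, 0.112 and 0.750, and 0.368, 0.39 and 0.203, and each library except LK2-ctrl replicate 2 (0.181 with LK2-maspin replicate 1) correlated best with its own number, a hint from the data. With a replicate block, 2 family genes were called in LK-2 cells (ERBB4 and TGFA), 5 in RERF-LC-AI cells (EGFR, ERBB2, ERBB3, EREG and HBEGF) and 3 in the interaction (EGFR, ERBB3 and TGFA), and 8 and 27 of the genes around the family. Over all genes the block moved the calls from 140 to 1190 in LK-2 and from 2655 to 4081 in RERF-LC-AI cells.

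Changes of sign were confined to values that were not called. The interaction of ERBB2 (its maspin effect in RERF-LC-AI minus that in LK-2 cells) was -0.0051 with DESeq2 and -0.0052 with RLE factors. With a library left out, the log2 fold change in LK-2 cells ran from -0.037 to 0.22 for EGFR, from -0.051 to 0.15 for ERBB3, from -0.11 to 0.39 for EREG and from -0.18 to 0.014 for EGF. In RERF-LC-AI cells it ran from -0.036 to 0.35 for ERBB4, from -0.28 to 0.19 for AREG, from -0.21 to 0.0049 for BTC and from -0.44 to 0.043 for EGF. This interaction ran from -0.053 to 0.097 for ERBB2, from -0.0030 to 0.54 for AREG, from -0.044 to 0.27 for BTC and from -0.33 to 0.13 for EGF. Counts were fewest, with the widest SEs, for AREG, EREG and HBEGF in LK-2 cells and for ERBB4, EGF and AREG in RERF-LC-AI cells.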

Other observations

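Genes whose levels moved most like 4 of the EGFR family genes were sought among 17829 genes of at least 1 CPM, by the root mean square difference of log2 CPM, centred within each cell line, over the 12 libraries. These libraries also set the members' own changes, so likeness is a description with no test. The changes with maspin of the genes found this way follow in part from how they were picked. For EGFR the closest were LRRC8A (difference 0.0990), a subunit of a volume-regulated anion channel, KIAA0895 (0.105) and HYAL3 (0.107), against a spread of EGFR itself of 0.216. LRRC8A fell in RERF-LC-AI cells (log2 fold change -0.39, adjusted p = 2.36e-06, edgeR quasi-likelihood test), and was not called in LK-2 cells (0.14). For TGFA the closest were FAM189A1 (0.143), the homeobox gene HOXC8 (0.149) and the cell adhesion gene NTM (0.155), against a spread of 0.456. FAM189A1 (1.11, adjusted p = 0.0135) and NTM (1.29, adjusted p = 0.0256) rose in LK-2 cells, and HOXC8 had 0.84 (adjusted p = 0.0718).

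For ERBB2 the closest were SLC25A6 (0.0430), H6PD (0.0463) and ETV1 (0.0508), against a spread of 0.114, and for ERBB3 they were MAML3 (0.0977), SNAP25 (0.117) and CNPY4 (0.140), against 0.267. The other marker lists were also read. Adenocarcinoma markers summed to 6.63 to 8.65 CPM in LK-2 (mostly NKX2-1 and SFTPB) and 1.38 to 1.99 CPM in RERF-LC-AI libraries, neuroendocrine markers to 27.1 to 35.6 and 4.31 to 5.53 CPM, and blood and vessel markers to 7.54 to 10.4 and 42.5 to 47.4 CPM. Single genes carried these sums. INSM1 made up most of the neuroendocrine sum in LK-2 cells and SYP in RERF-LC-AI cells, where SYP was higher (log2 4.08 between the ctrl lines). CD68 made up most of the blood and vessel sum in RERF-LC-AI cells, whereas PTPRC (-2.06) and PECAM1 (-1.12) were lower there. Fibroblast markers summed to 14.7 to 26.7 CPM in LK-2 libraries. With maspin, no gene of the adenocarcinoma, neuroendocrine or blood and vessel lists was called. In RERF-LC-AI cells PTPRC (log2 fold change 1.16, adjusted p = 0.0520, edgeR quasi-likelihood test), PECAM1 (0.52) and NEUROD1 (0.29) lay higher in all maspin libraries. In LK-2 cells NKX2-1 (-0.38) and INSM1 (-0.26) lay lower and CHGA (0.60) higher in all maspin libraries.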
